A study of Mus musculus with 6 samples.

Results

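Gpr50, Rax, Dio2 and Crym are genes by which tanycytes, glial cells of the hypothalamus, are commonly recognised. They are 4 of the 21899 genes counted in irradiated mouse thalamus. The 4 genes were found by symbol and were selected on the RN and RC counts of these mice, which were already known, with Gpr50 among the genes called different. Their differences between the groups are therefore given as a description, with no p-value, and a call is stated only because it took part in the choice.

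Bulk RNA was sequenced from the thalamus of male wild-type C57BL/6J mice in 2 groups of 3. The mice were 8 to 10 weeks old when purchased, and were older when tissue was taken. Every mouse received 50 Gy to the thalamus and, 2 weeks later, 2 µL of an AAV9 virus in the same region, and tissue was taken 6 weeks after irradiation. RC mice received the control virus AAV9 GFAP104::tdTomato, which carries a red fluorescent protein alone. RN mice received AAV9 GFAP104::mND1-tdTomato, which adds mouse NeuroD1, a transcription factor of neuronal differentiation. GFAP104 is a promoter directed at astrocytes. The tissue was a whole piece lifted out from beneath the hippocampus, so a library mixes every cell type in the piece. In such tissue, fewer cells of a type and less RNA per cell cannot be told apart.

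Tanycytes line the floor and lower walls of the third ventricle and send long processes into the hypothalamus. They carry signals between cerebrospinal fluid, blood and hypothalamic neurons, and they are a main site where the brain activates thyroid hormone. Rax is a homeodomain transcription factor needed to form the hypothalamus and retained in adult tanycytes. Dio2 is the deiodinase that turns thyroxine into the active hormone T3, and astrocytes also make it. Crym, or mu-crystallin, binds T3 in the cytosol and is also found in neurons of the cortex and striatum. Gpr50 is an orphan receptor related to the melatonin receptors that does not bind melatonin, and neurons of the dorsomedial hypothalamus make it as well.

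The RefSeq promoters of Gpr50 and Dio2 are shown, since a promoter was found for only these 2 of the 4 genes. Gpr50 had groups far apart and Dio2 had groups that overlapped. The promoters are from build GRCm38.p6 and run 5′ to 3′ from 250 bases before to 50 bases after the start of the gene. Capitals mark letters of the motifs searched. Gpr50 lies at chrX:71663417-71663716 on the plus strand and Dio2 at chr12:90738989-90739288 on the minus strand.
Gpr50: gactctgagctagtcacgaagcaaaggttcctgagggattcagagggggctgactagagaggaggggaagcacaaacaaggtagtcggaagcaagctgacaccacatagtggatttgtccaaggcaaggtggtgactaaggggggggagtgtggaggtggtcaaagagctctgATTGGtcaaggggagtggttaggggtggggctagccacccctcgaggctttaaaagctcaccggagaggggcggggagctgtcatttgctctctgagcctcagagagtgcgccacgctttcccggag
Dio2: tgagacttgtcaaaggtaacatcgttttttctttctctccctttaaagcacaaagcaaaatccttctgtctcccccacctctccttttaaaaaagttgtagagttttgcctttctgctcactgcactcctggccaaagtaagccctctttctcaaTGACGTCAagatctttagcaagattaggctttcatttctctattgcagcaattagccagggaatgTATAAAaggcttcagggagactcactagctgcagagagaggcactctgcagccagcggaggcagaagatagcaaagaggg
The Dio2 window holds the cAMP response element TGACGTCA from base -95 and the TATA box TATAAA from base -30, counted from the start of the gene. The Gpr50 window holds CCAAT on the minus strand from base -77, printed here as its reverse complement ATTGG. Neither window holds the E-boxes CAGATG and CAGCTG or the homeodomain core TAATTA. All were searched on both strands, and the matches do not overlap. Of 32851 promoters of this length, 1.79% hold TGACGTCA, 13.6% TATAAA, 37.4% CCAAT, 17.2% CAGATG, 16.3% CAGCTG and 5.29% TAATTA. A match is a string of letters and was not tested for binding, and no match says only that the letters are not in this window.

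The libraries held 16561663 to 18657015 counts, so that 3 counts, the limit a count of 0 allows, stood for 0.160 to 0.179 CPM, the counts scaled to a common library total. Neurod1 had 84, 91 and 90 counts in the RC mice, against 1123, 1711 and 910 in the RN mice, which may include transcripts of the virus. Some libraries stood apart in genes of neighbouring tissue. Summed pituitary genes were at 2.92 CPM in RC replicate 3 and 3.63 CPM in RN replicate 3, against 85.9 to 1434 CPM in the other mice. Summed choroid plexus genes reached 8545 CPM in RC replicate 2. All 6 striatal genes were highest in RN replicate 3, where their sum was 743 CPM against 91.3 to 507 CPM elsewhere.

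Gpr50 was low in every RC mouse and several-fold higher in every RN mouse. In the order of the replicates, RC mice had 24, 26 and 17 counts against 117, 263 and 139 counts in RN mice. The groups did not overlap, and RN replicate 2 was the highest. The RC mean was 1.29 ± 0.294 CPM and the RN mean 9.59 ± 3.89 CPM (SD, n = 3 each), a 7.43-fold ratio. The fitted log2 fold change was 2.89 with a standard error of 0.344. It lay between 2.50 and 3.08 in every alternative fit, with the lowest value when RN replicate 2 was left out.

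Rax, the defining transcription factor of tanycytes, was near the limit of detection. It had 2, 1 and 1 counts in the RC mice, against 2, 10 and 2 in the RN mice, at or under 3 counts in 5 of the 6 mice, and the filter on low counts removed it. Summed over the mice it was 4 counts in RC and 14 in RN. The depth-adjusted ratio was 3.41, with an exact 95% interval of 1.07 to 14.2 that covers counting error only and takes the counts as whole reads. The 10 counts of RN replicate 2 set it: without that mouse the sums were 4 and 4 and the ratio 1.5, with an interval of 0.279 to 8.05. Raxos1, an antisense transcript, overlaps Rax in the GENCODE M21 annotation, and without knowledge of the strand their reads cannot be told apart.

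Dio2 was measured well above the floor and its groups overlapped. It had 270, 311 and 496 counts in the RC mice, against 196, 327 and 287 in the RN mice. RC replicate 3 was the highest and RN replicate 1 the lowest. The RC mean was 20.7 ± 6.88 CPM and the RN mean 15.1 ± 3.03 CPM, with a fitted log2 fold change of -0.46 and a standard error of 0.251. The value stayed below 0 in all 13 alternative fits, from -0.64 to -0.16. The long noncoding RNA Gm26512 overlaps Dio2 on the opposite strand, with the same limit as for Rax.

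Crym varied more between mice of a group than between groups. It had 80, 852 and 131 counts in the RC mice, against 249, 269 and 951 in the RN mice, so that RC replicate 2 and RN replicate 3 were each far above the others of their group. The means were 21.0 ± 26.0 and 27.4 ± 22.3 CPM. The fitted log2 fold change was 0.39 with a standard error of 0.874. It moved from -0.52 without RN replicate 3 to 2.20 without RC replicate 2, and lay below 0 as well without RC replicate 1 or RC replicate 3. Within groups the SD of log2 CPM was 1.5 for Crym, against a median of 0.180 over 2478 genes of like level. The same SD was 0.442 for Gpr50 and 0.391 for Dio2, against medians of 0.346 and 0.179 over genes of their level. RN replicate 3 had the most Crym of all mice, and RN replicate 2 the most Gpr50 and Rax. Among the RC mice, RC replicate 2 had the most Crym and the most Gpr50.

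**Figure D1:**
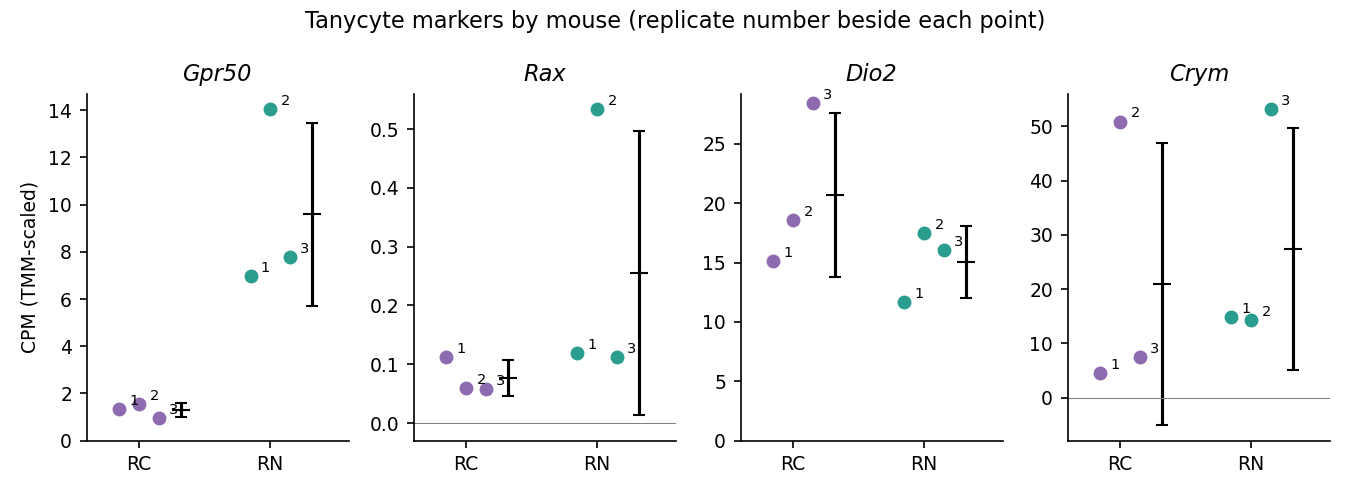
Each panel plots 1 gene in CPM, with a point for each of the 3 RC and 3 RN mice and bars for the mean and SD. The RC mice lie at 0.973 to 1.55 CPM of Gpr50 and the RN mice at 6.96 to 14.1 CPM, Rax is near 0 in 5 mice, and Dio2 and Crym overlap between groups.

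Of the 3 genes that passed the filter, 1, Gpr50, passed the thresholds of a call (adjusted p under 0.05 and at least 2-fold), where 0.0735% of the 14956 tested genes were called. It was also the 1 gene of the 3 whose RN mice all lay above the RC mice, against 8.18% of tested genes. Because the choice of the genes used this comparison, nothing is read from these shares. Gpr50 was no longer called when any 1 mouse other than RN replicate 1 was left out.

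Levels were compared between genes per kilobase of exon, again in CPM. In RC, Crym averaged 6.18, Dio2 3.56, Gpr50 0.420 and Rax 0.013 CPM per kilobase. Crym and Dio2 overlapped across mice, and Gpr50 lay at 0.317 to 0.506 CPM per kilobase, below both in every RC mouse. In RN, Crym averaged 8.09, Gpr50 3.13, Dio2 2.59 and Rax 0.044 CPM per kilobase. The level of Gpr50 was above that of Dio2 in RN replicates 1 and 2 and below it in RN replicate 3, at 2.53 against 2.76 CPM per kilobase. The order of these neighbours was therefore within their spread.

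The other tanycyte genes were a list of 22, all of which passed the filter. The RN mice all lay above the RC mice in 0 of them, against 8.18% of tested genes. EdgeR's quasi-likelihood test called 0, and DESeq2 called 1, Adm, as lower. For comparison, DESeq2 called 1.20% of all tested genes. At an unadjusted p under 0.05, 0 of the 22 were higher and 5 lower, with 11.8% of all tested genes in either direction. The same 5 were the genes whose RN mice all lay below the RC mice, against 8.11% of tested genes. The median log2 fold change was -0.23, with 16 genes below 0 and 6 above, and the median of all tested genes was 0.0037.

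The 5 genes were Adm, Mia, Slco1c1, Nes and Ptn. Adm, which encodes the peptide adrenomedullin, had 175, 127 and 179 counts in the RC mice, against 53, 75 and 107 in the RN mice. Its log2 fold change was -1.07 ± 0.260 (SE), with an adjusted p of 0.151 in edgeR's quasi-likelihood test. Mia, a small secreted protein, had 58, 67 and 47 counts in the RC mice, against 18, 38 and 25 in the RN mice, a log2 fold change of -1.14 ± 0.327 with an edgeR adjusted p of 0.208. Slco1c1, a carrier of thyroxine that brain vessels and astrocytes also make, had 1163, 1892 and 1057 counts in the RC mice, against 687, 854 and 962 in the RN mice. Its log2 fold change was -0.77 with an edgeR adjusted p of 0.230. Nes and Ptn, a filament protein and a growth factor of immature glia, had log2 fold changes of -0.45 and -0.19.

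The transcription factors of the list gave -0.41 for Lhx2, -0.26 for Six3 and -0.08 for Sox2 on the log2 scale. Vim, an intermediate filament of tanycytes and reactive glia, gave -0.20. The genes that lay above 0 were Pdzph1 at 0.60, Trhde at 0.51, Vcan at 0.50, Col23a1 at 0.35, Col25a1 at 0.28 and Scn7a at 0.12. Trhde breaks down thyrotropin-releasing hormone in tanycytes of the median eminence. Lower values were those of Rarres2 at -0.52, Ppp1r1b at -0.48, Slc17a8 at -0.36, Frzb at -0.33, Cd59a at -0.16 and Fgf10 at -0.02. None of these 16 log2 fold changes passed the test. Ppp1r1b also stands in the striatal list and varied widely between mice. It had 1243, 4156 and 4579 counts in the RC mice, against 543, 605 and 6273 in the RN mice.

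**Figure D2:**
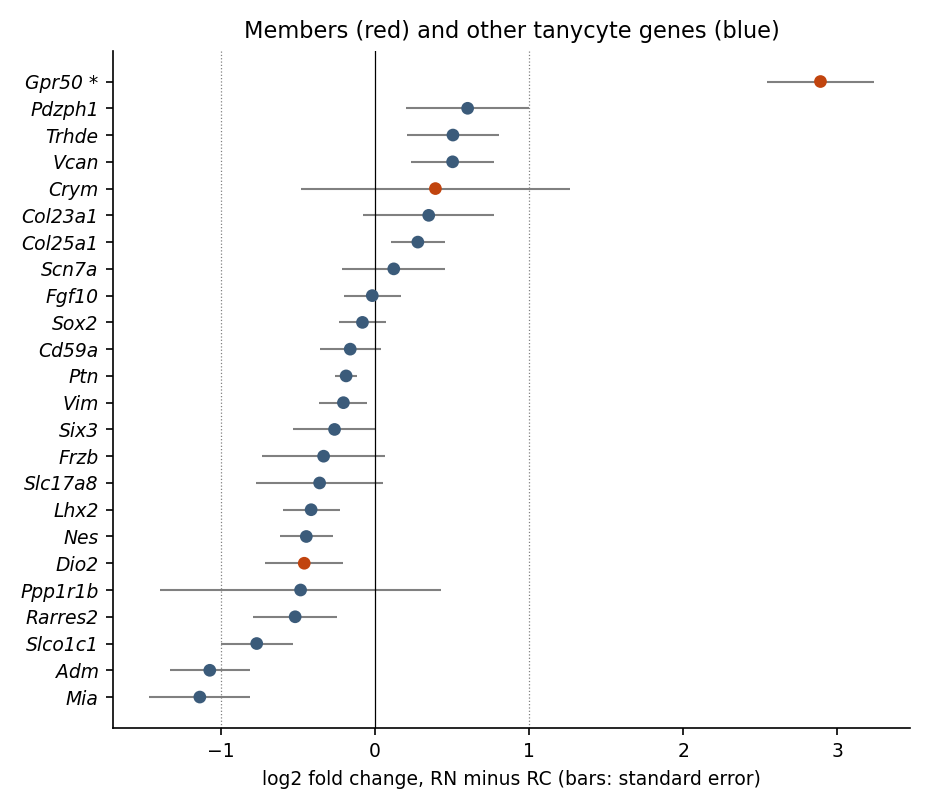
The log2 fold change of RN over RC is plotted for the members that passed the filter and 21 of the 22 other tanycyte genes, with bars for the standard error, an asterisk for the call by edgeR and dotted lines at a 2-fold change. Gpr50 at 2.89 stands to the right of all others, which lie between -1.14 and 0.60.

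Of the melatonin receptors to which Gpr50 is related, Mtnr1a had 5, 2 and 10 counts in the RC mice, against 4, 4 and 0 in the RN mice, and Mtnr1b had 0 in all 6 mice, which allows up to 0.160 to 0.179 CPM. Neither passed the filter. Proteins reported to bind GPR50 or to act with it include the TGF-beta receptors, the acetyltransferase TIP60 (Kat5), Nogo-A (Rtn4), ABCA2 and the leptin receptor. EdgeR called 0 of these 6 genes and DESeq2 0, where they called 0.0735% and 1.20% of tested genes. At an unadjusted p under 0.05 there were 0 of the 6, against 11.8% of tested genes. Their log2 fold changes were 0.04 for Tgfbr1, -0.15 for Tgfbr2, 0.16 for Kat5, 0.11 for Rtn4, -0.05 for Abca2 and -0.39 for Lepr.

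Dio2 and Crym act on thyroid hormone, and 21 genes of its transport, conversion, reception and control were followed, of which 19 passed the filter. EdgeR called 0, with 2 higher and 3 lower at an unadjusted p under 0.05, against 11.8% of tested genes. DESeq2 called Trh as higher and Ttr as lower, where it called 1.20% of tested genes. The median log2 fold change was 0.07, with 13 genes above 0 and 6 below. Of the deiodinases, Dio1 had at most 2 counts in any mouse. Dio3, which inactivates the hormone, had 3, 42 and 7 counts in the RC mice, against 27, 22 and 36 in the RN mice, and the groups overlapped.

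The nuclear receptors Thra and Thrb had log2 fold changes of -0.05 and 0.17, and their cofactors and partners Rxra, Ncor1, Ncoa1, Med1 and Hr had groups that overlapped. Klf9, a gene that T3 induces, gave -0.32. Among the carriers, Slc16a10 gave 0.44 and Slc7a8 0.01 with groups that overlapped, while Slco1c1, described above, had groups apart. The receptors Tshr and Trhr gave 0.63 and 0.24.

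Trh, the hypothalamic releasing hormone of the thyroid axis, had 368, 302 and 236 counts in the RC mice, against 657, 646 and 1228 in the RN mice. The groups did not overlap, and the log2 fold change was 1.45 ± 0.273 with an edgeR adjusted p of 0.0986. Ttr, the thyroxine carrier of choroid plexus, had 44222, 127609 and 4491 counts in the RC mice, against 415, 1169 and 1642 in the RN mice, a log2 fold change of -5.85 ± 1.15 with an edgeR adjusted p of 0.108. Without RC replicate 3, Ttr was called. Cga and Tshb encode the subunits of the pituitary hormone thyrotropin. Cga had 58, 41 and 0 counts in the RC mice, against 826, 1252 and 2 in the RN mice, with an edgeR adjusted p of 0.279. With the replicate number as a block, which called 0.147% of tested genes, the adjusted p of Cga in edgeR's test was 0.00936. Tshb had 0, 5 and 0 counts in the RC mice, against 31, 49 and 0 in the RN mice and did not pass the filter.

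**Figure D3:**
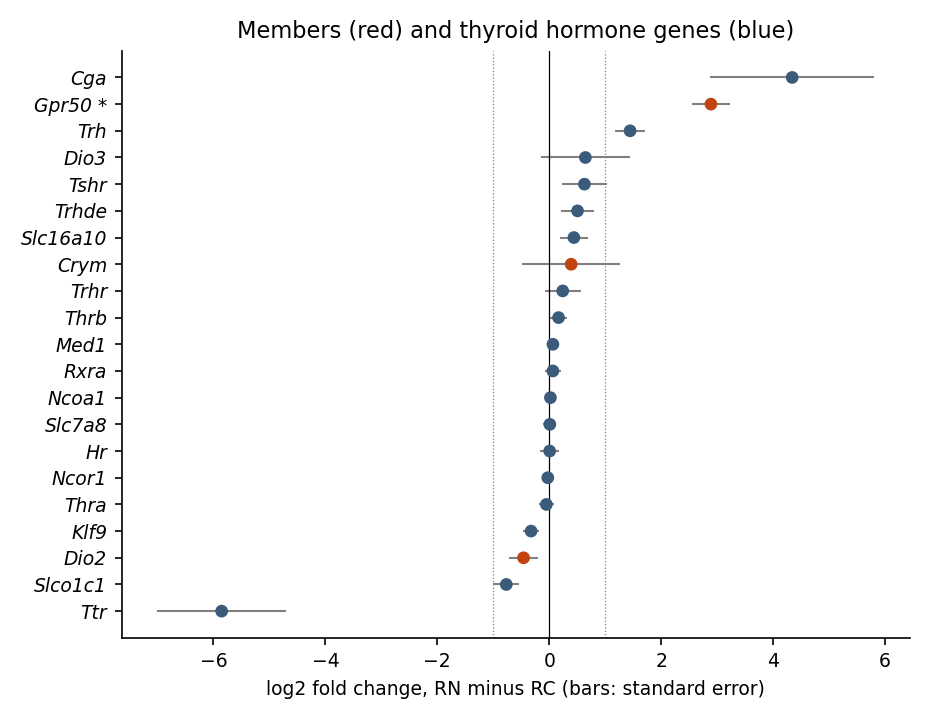
The log2 fold change of RN over RC is plotted for 18 of the 19 thyroid hormone genes that passed the filter (blue) and for Gpr50, Dio2 and Crym (red), with bars for the standard error, an asterisk for the call by edgeR and dotted lines at a 2-fold change. Ttr at -5.85 and Cga at 4.34 lie far from 0 with wide errors, Trh lies at 1.45, and most other genes lie close to 0.

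Genes of the hypothalamic region are given beside Gpr50. The list held 14 genes, 12 of which passed the filter, and all 12 log2 fold changes were above 0, with a median of 1.51. In edgeR's test 0 of them were called, with 6 higher at an unadjusted p under 0.05 and a smallest adjusted p of 0.150, and DESeq2 called 4. Of all tested genes, 11.8% had an unadjusted p under 0.05 and DESeq2 called 1.20%. In 6 genes the RN mice all lay above the RC mice, against 8.18% of tested genes, and in the other 6 the groups overlapped. Some of the 12, Six6 among them, had under 10 counts in every RC mouse and passed the filter through the RN mice. For such genes the filter favoured a value above 0, and they enter the counts of calls, of p-values and of groups apart. Fezf1, called by DESeq2, had 22, 38 and 6 counts in the RC mice, against 91, 143 and 76 in the RN mice. The summed level of the list was 32.5, 18.7 and 16.6 CPM in the RC mice, against 53.0, 65.6 and 43.5 CPM in the RN mice. Nkx2-1, the factor that patterns the ventral hypothalamus, had 84, 40 and 36 counts in the RC mice, against 142, 126 and 136 in the RN mice. Six6, a homeodomain factor of ventral hypothalamus, pituitary and retina, had 5, 5 and 2 counts in the RC mice, against 26, 62 and 11 in the RN mice. Otp, a factor of neuroendocrine neurons, had 127, 65 and 31 counts in the RC mice, against 211, 328 and 210 in the RN mice.

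Gpr50 was set against this list within each mouse. Per 100 CPM of the summed hypothalamic genes, Gpr50 had 4.14, 8.31 and 5.86 CPM in the RC mice, against 13.1, 21.4 and 17.9 CPM in the RN mice, which did not overlap. Against summed hypothalamic peptide genes, the same quantity was 0.629, 1.22 and 2.84 CPM in the RC mice, against 1.54, 3.73 and 2.70 CPM in the RN mice, which overlapped. The tested region genes had log2 fold changes from 0.39 to 2.95, against 2.89 for Gpr50, so the quantity depends on the genes summed. Gpr50 was also chosen on this comparison, so nothing is read from the groups that lay apart. The 10 peptide genes, 8 of which passed the filter, all had log2 fold changes above 0 among those tested, with a median of 1.41. The highest, Pomc at 3.04, stands in the pituitary list as well and enters both sums. It had 75, 81 and 26 counts in the RC mice, against 731, 786 and 27 in the RN mice. EdgeR called 0 of the 8 peptide genes, with 5 at an unadjusted p under 0.05. DESeq2 called 2, Trh and Oxt, and these counts stand against the same shares of tested genes. In 4 of the 8 the RN mice all lay above the RC mice, against 8.18% of tested genes, and Pomc was not among them. Oxt had 278, 112 and 161 counts in the RC mice, against 462, 735 and 847 in the RN mice. For Avp the counts were 154, 294 and 33 in the RC mice, against 888, 1117 and 583 in the RN mice. The peptide sums were 214, 127 and 34.3 CPM in the RC mice, against 451, 377 and 288 CPM in the RN mice. The part of hypothalamic tissue in the level of Gpr50 was not tested.

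Pituitary genes also lay above 0, with log2 fold changes above 0 in all 5 tested and a median of 3.61, but with a wide spread between mice. Their sums were 85.9, 95.1 and 2.92 CPM in the RC mice, against 1434, 691 and 3.63 CPM in the RN mice. In edgeR's test 0 of the 5 tested were called, with 4 at an unadjusted p under 0.05, and DESeq2 called 0. Of all tested genes, edgeR called 0.0735% and DESeq2 1.20%, and 11.8% had an unadjusted p under 0.05. In RN replicate 3 the pituitary genes summed to 3.63 CPM, close to the 2.92 CPM of RC replicate 3, while Gpr50 had 139 counts in the former and 17 in the latter. The part of pituitary tissue in the level of Gpr50 was not tested.

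Genes of the cells that line the ventricles had log2 fold changes of the opposite sign, and their counts of calls stand against the same shares of all tested genes, 0.0735% in edgeR, 1.20% in DESeq2 and 11.8% at an unadjusted p under 0.05. All 11 ependymal genes had log2 fold changes below 0, with a median of -0.997 and sums of 147, 158 and 157 CPM in the RC mice, against 69.6, 91.3 and 83.8 CPM in the RN mice. EdgeR called 0 of the 11, with 10 lower at an unadjusted p under 0.05, and DESeq2 called 5. All 12 choroid plexus genes lay below 0 with a median of -3.67. In edgeR's test 0 of these were called, with 11 lower at an unadjusted p under 0.05, and DESeq2 called 9. Their sums ran from 335 to 8545 CPM in RC and from 77.4 to 158 CPM in RN.

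Astrocyte genes are given beside Dio2, which astrocytes also make. All 10 lay below 0 with a median log2 fold change of -0.43, close to the -0.46 of Dio2. EdgeR called 0 of the 10, with 7 lower at an unadjusted p under 0.05, and DESeq2 called 0, again against 11.8% and 1.20% of tested genes. Their sums were 7044, 8998 and 7672 CPM in the RC mice, against 4992, 6180 and 6212 CPM in the RN mice. RC replicate 2 was highest in 9 of the 10 genes, whereas Dio2 was highest in RC replicate 3. The part of astrocytes in the level of Dio2 was not tested.

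Striatal and cortical genes are given beside Crym. The striatal list summed to 129, 386 and 507 CPM in the RC mice, against 91.3, 104 and 743 CPM in the RN mice. RN replicate 3 was highest for both Crym and this list, but RC replicate 2, which had 852 Crym counts, was not the highest RC mouse. The cortical and hippocampal list summed to 179, 344 and 266 CPM in the RC mice, against 241, 263 and 146 CPM in the RN mice, with RC replicate 2 highest and RN replicate 3 lowest. EdgeR and DESeq2 called 0 genes of either list, with 0 at an unadjusted p under 0.05. The part of these tissues in the level of Crym was not tested. The tissue, thalamus by the study's methods, was also checked by 9 genes of thalamic neurons. They summed to 1405, 980 and 1900 CPM in the RC mice, against 1478, 1165 and 764 CPM in the RN mice. Thalamic transcripts were therefore present in every mouse. All 9 log2 fold changes were below 0, with a median of -0.45, and the groups overlapped in each. EdgeR and DESeq2 called 0 of the 9, with 0 at an unadjusted p under 0.05. Of the 6 habenular genes, edgeR and DESeq2 called 0, with 2 at an unadjusted p under 0.05. All 6 lay above 0, with a median log2 fold change of 0.47. Of 7 pineal genes, 2 passed the filter and edgeR and DESeq2 called 0, with 1 at an unadjusted p under 0.05. That 1 gene had 6 counts in every RC mouse and passed the filter through the RN mice. Beside all these lists, edgeR called 0.0735% and DESeq2 1.20% of all tested genes, and 11.8% had an unadjusted p under 0.05.

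**Figure D4:**
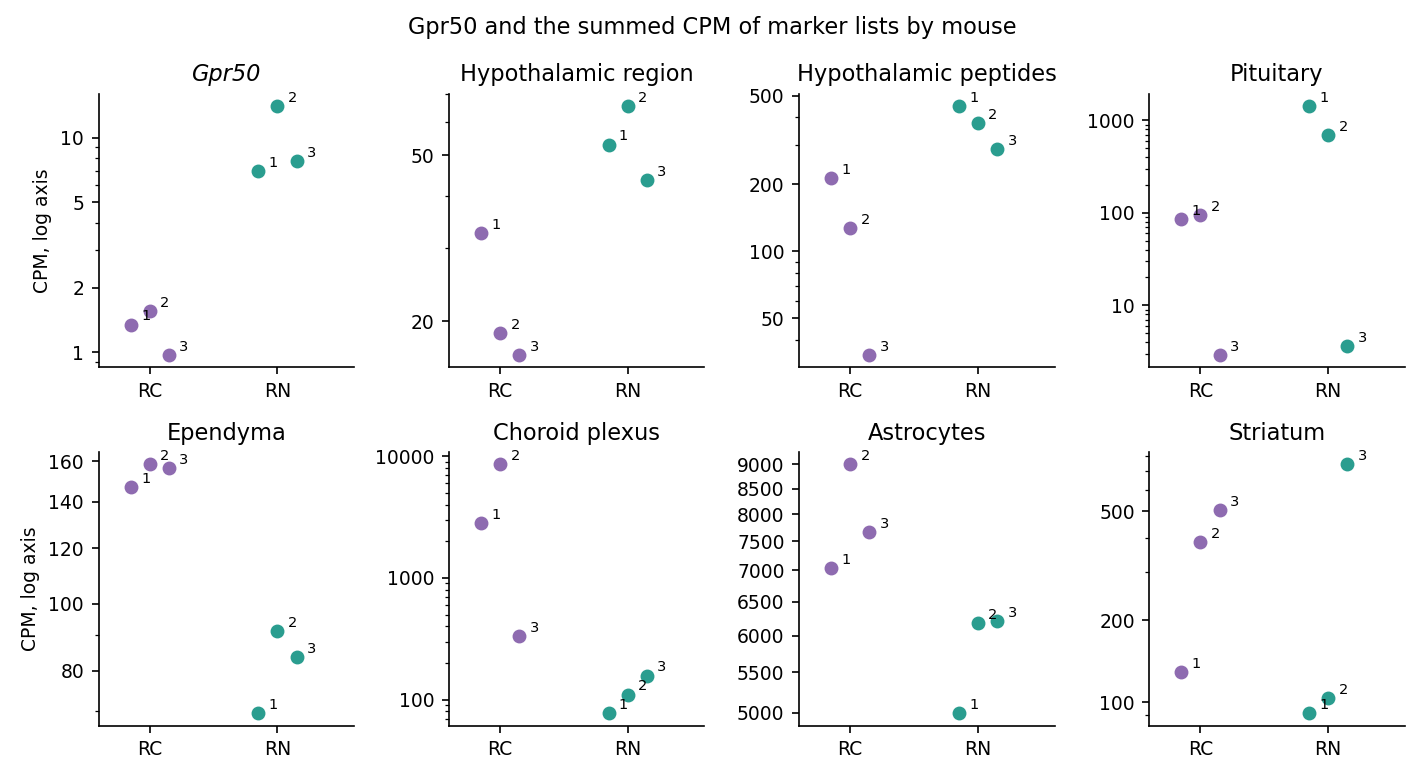
Gpr50 and the summed CPM of 7 marker lists are plotted for the 6 mice on log axes, 1 panel for each, with the replicate number beside the point. Hypothalamic sums are higher in RN (43.5 to 65.6 CPM against 16.6 to 32.5 CPM), ependymal and choroid plexus sums lower, and pituitary sums near 3 CPM in RC replicate 3 and RN replicate 3.

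The genes whose pattern over the 6 mice was most like each member were found by the root mean square difference of log2 CPM, each gene centred on its own mean. For Gpr50 they were Mmp27 at 0.275, Lao1 at 0.361, Cd5l at 0.452, Mfap4 at 0.453 and Rgs13 at 0.469, where the median of all genes was 1.43. Cd5l, a protein secreted by macrophages, had 155, 263 and 172 counts in the RC mice, against 582, 1251 and 1398 in the RN mice. Mfap4, a matrix protein, had 34, 22 and 10 counts in the RC mice, against 82, 218 and 200 in the RN mice. Mmp27, Lao1 and Rgs13 had at most 8 counts in any RC mouse. None of the 5 stood in the tanycyte or hypothalamic lists. The search favours genes whose difference between groups is near that of Gpr50, so nothing is read from this absence.

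For Dio2 the most alike genes were Casq2 at 0.0742, Pvalb at 0.117 and Ptger2 at 0.118, with a median of 0.429 over all genes. Pvalb, the calcium-binding protein of fast-spiking neurons, had 1382, 1843 and 2691 counts in the RC mice, against 1000, 1557 and 1333 in the RN mice. For Crym they were Dio3 at 0.50, Icam5 at 0.511 and Lhx6 at 0.526, with a median of 1.31. Icam5, an adhesion molecule of forebrain neurons, had 180, 891 and 355 counts in the RC mice, against 405, 371 and 997 in the RN mice. Lhx6, a factor of forebrain interneurons, had 58, 242 and 92 counts in the RC mice, against 182, 106 and 635 in the RN mice. The likeness rests on 6 mice that share their libraries and is a description.

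**Figure D5:**
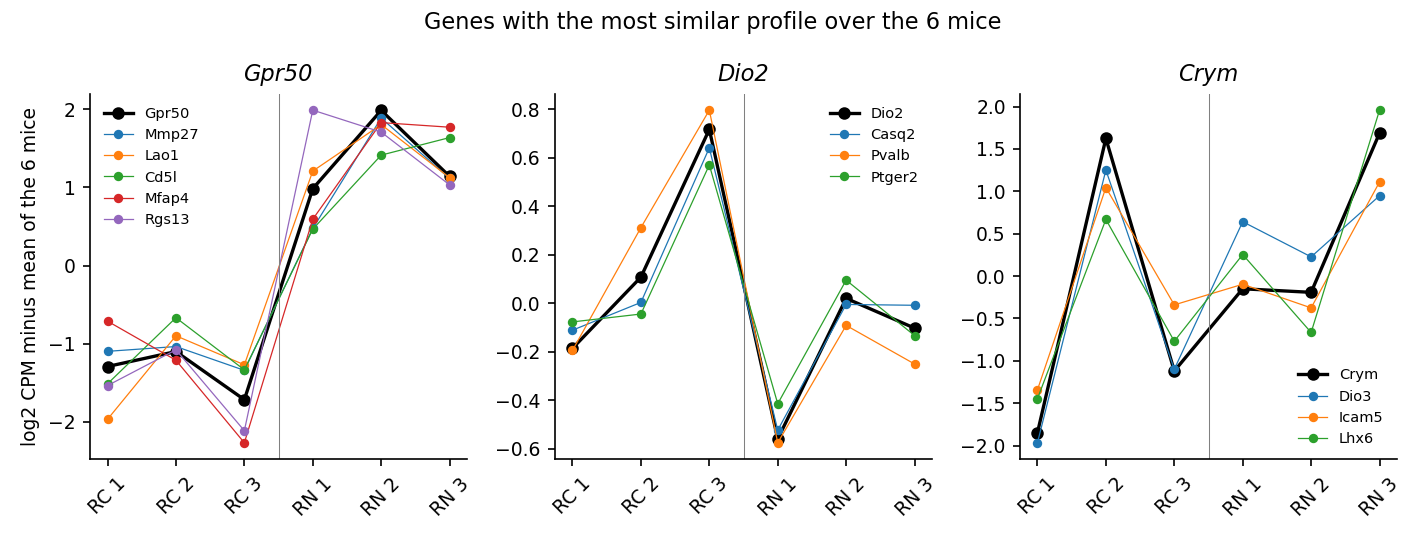
Centred log2 CPM of each member and its most alike genes is plotted for the 6 mice, with lines that join the points of 1 gene and no order among mice. The genes grouped with Gpr50 are low in all RC and high in all RN mice, while those grouped with Crym are highest in RC replicate 2 among RC mice and in RN replicate 3 among RN mice.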

How the data were processed

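Whole-tissue RNA from 3 RC and 3 RN mice was analysed, with groups and replicate numbers taken from the labels. The authors deposited whole-number counts for each gene, 1 column per mouse and not normalized. Per the submitters' processing notes, fastp 0.18.0, FastQC, HISAT2 2.2.4, RSEM 1.2.19 and the build GRCm39 were used, and their roles are not stated there. RSEM estimates counts, so the whole numbers may be rounded estimates and were used as deposited. The annotation, the treatment of shared reads and the use of strand are not given in the sources used here. Libraries were made with the NEBNext Ultra RNA kit.

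Of 21899 genes, 14956 passed filterByExpr (minimum count 10) in edgeR 4.0.16 under R 4.3.3. Counts were normalized with TMM and fitted with the quasi-likelihood test (legacy option) with group as the only term, and p-values were adjusted by Benjamini-Hochberg across the tested genes. Calls needed at least a 2-fold change and an adjusted p under 0.05. CPM uses TMM-scaled library totals, log2 CPM a prior count of 2 and fold changes a prior count of 0.125. The code was tested on simulated counts. Levels per kilobase use union exon lengths of GENCODE M21, an annotation of the earlier build GRCm38, matched by gene identifier. Of 156 list entries, 155 matched a gene.

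The members, gene lists and tests were chosen with earlier results of these data known. 1 gene of the tanycyte and thyroid hormone lists is counted in their totals but not reported here by name. Named genes are otherwise the members, the tanycyte, thyroid hormone, receptor family and partner lists, called genes, up to 3 genes of each other list by smallest p, the 5 genes most like Gpr50, the 3 most like each other member, and Neurod1. Nr5a1 and Tbx3 in the closing section lie outside this rule and were named after their values were seen. P-values set the difference between RC and RN against the spread of mice within these 2 groups of 3.

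RC and RN share replicate numbers, and deviations from the group mean correlated across genes by 0.173, 0.120 and 0.209 for replicates 1, 2 and 3. The reported values are from the fit without pairs. As every correlation was over 0.1, the fit with the replicate block is given where it changed a call; the labels do not say what a number marks. RC replicate 1 and RN replicate 2 also correlated, at 0.156. Library pairs differed beyond sampling noise, with a chi-square per degree of freedom of 15.8 to 42.7. The alternatives were DESeq2 1.42.0, its size factors or library totals in edgeR, edgeR without its legacy option, no filter, at least 10 counts in every mouse, no fold threshold, the replicate block and each mouse left out in turn.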

Additional observations from a re-analysis of the deposited data

How the results depend on the processing

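Leaving out each mouse in turn moved the log2 fold change of Crym between -0.52 and 2.20, the number of the 4 members called between 0 and 1, and the number of thyroid hormone genes called between 0 and 1. With DESeq2, 1 of the other tanycyte genes, 2 thyroid hormone genes and 4 hypothalamic region genes were called, against 0 each in edgeR. Over all tested genes, DESeq2 called 98 higher and 81 lower and edgeR 9 and 2, with 36 and 7 without the filter on low counts and 13 and 2 without the legacy option. The replicate block called 17 and 5, gave Gpr50 a log2 fold change of 2.85 and called 1 thyroid hormone gene, Cga. It changed no other call among the members, the other tanycyte genes, the thyroid hormone genes and the hypothalamic region genes. Without a mouse, edgeR called 3 to 26 genes higher and 0 to 18 lower. The cause of these differences was not tested. Without RN replicate 2 the ratio of Rax was 1.5, and Gpr50 and Dio2 kept their direction in all 13 alternatives. Rax, at 1 to 10 counts, and genes under 0.160 to 0.179 CPM are limited by depth.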

Other observations

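RN replicate 2 held the highest value of several genes set beside Gpr50, of which Nr5a1 and Tbx3 were named after their values were seen. It was the highest of the 6 mice for 7 of the 12 tested hypothalamic region genes. The same held for 2 of the 8 tested hypothalamic peptide genes and 2 of the 22 other tanycyte genes. Of those 22, 8 were highest in RC replicate 2 and 6 in RC replicate 3. The share of all tested genes highest in each mouse was not counted, so nothing is read from these numbers. Nr5a1, a factor of the ventromedial hypothalamus, had 8, 9 and 3 counts in the RC mice, against 17, 80 and 11 in the RN mice. Tbx3, a factor of arcuate neurons and tanycytes, had 62, 53 and 62 counts in the RC mice, against 44, 141 and 57 in the RN mice. Gpr50 with 263 counts, Rax with 10 and Six6 with 62 were also highest in RN replicate 2. Nr5a1 and Six6 had under 10 counts in every RC mouse and passed the filter through the RN mice. An RN mouse was therefore favoured as their highest.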
